A study of Homo sapiens with 28 samples.

Results

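The genes described here are MYC, its dimer partner MAX, the MAX-binding repressors MXD1 and MXI1, and genes that build ribosomes or feed growth, 40 genes in all chosen by name. MYC is a transcription factor that binds DNA as a dimer with MAX at E-box sequences, and MXD1 and MXI1 compete with it for MAX. Ribosomes are made in the nucleolus, where RNA polymerase I transcribes ribosomal RNA and a large set of assembly factors modifies, cuts and folds it into the small and large subunits. Genes for these factors, and for nucleotide and polyamine synthesis, are textbook MYC targets, and MYC is often rearranged in myeloma.

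The series holds 28 arrays of 4 lines of human myeloma cells, with 7 arrays a line. The lines are U266, MM.1s, KMS11 and 8226/S, and values that name no line are given in that order. Cells received arsenic trioxide (ATO), an inorganic arsenical, at 2 µM for 6, 24 or 48 h, or darinaparsin (DAR), an organic arsenical in which dimethylarsenic is joined to glutathione, for 6 or 24 h. The DAR dose was the same as that of ATO in 8226/S, 4 µM in U266 and 3 µM in MM.1s and in KMS11. Each line also had 2 untreated arrays at 0 h, called control 1 and control 2 here, and each of the 7 groups has 1 array of each line. There were no untreated arrays at 6, 24 or 48 h, so effects of an agent and of time in culture cannot be told apart. DAR was set against control 1 and ATO against control 2 of the same line, so each comparison has n = 4 lines. The labels do not say whether arrays came from separate cultures. In the treatment tests, p-values and standard errors rest on 1 spread per gene, pooled over the 4 lines and all treatments. They do not measure the spread of the 4 lines within 1 comparison.

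Of the 40 genes, 35 had at least 1 probe set that carries only their symbol, and all 35 passed the filter on dim genes, among 15448 genes tested of 19775 measured. NOP56, DKC1, BOP1, GNL3 and PPAN had none and were not analysed here. The 35 genes were read by 72 probe sets, and the brightest one stands for each gene. Levels are array intensities, and differences are on the log2(intensity + 29) scale with the standard error (SE) of the fit. A gene is said to have risen or fallen where limma's Benjamini-Hochberg adjusted p, taken over all genes tested, was under 0.05. Intensities of different probe sets cannot be set against each other, so levels are compared only within a gene.

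The arrays carried most of the plasma cell markers read here. Of 11 such markers, 7 lay above the array median of all probe sets on all 28 arrays. MZB1, SLAMF7, CD38 and CD27 did so on 26, 23, 17 and 14 arrays. None of the 5 mature B cell, 7 T cell, 5 myeloid and 7 stromal and endothelial markers read here did so on all 28. The mature B cell genes CD22 and BCL6 did so on 27, however, and the stromal gene COL1A1 on 22. The arrays fell into 2 sets in quality measures, control 1 with DAR and control 2 with ATO. The ACTB 3′/5′ ratio, which rises as RNA degrades, was 1.28 to 2.19 in the first set and 1.03 to 1.27 in the second, and array medians were 65.5 to 108.7 and 110.9 to 147.3. Between the untreated arrays of the sets, 18 of the 35 genes were lower and 2 higher in control 2, where 16.9% of all genes tested were lower and 28.1% higher, so no DAR array is set against an ATO array by a test.

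MYC itself fell after 6 h of ATO and not, by the test, after DAR. On the control 2 arrays MYC read 300.5 in U266, 11459 in MM.1s, 11060.2 in KMS11 and 17107 in 8226/S. After 6 h of ATO it read 94.5, 11042, 1218 and 11170.4 in the same order of lines. The lowest relative value was that of KMS11, and MM.1s stayed close to its control. The U266 value of 94.5 lay below the median of all probe sets on its array, 132.1. The mean change was -1.31 ± 0.36 (SE of the fit, n = 4), a 2.48-fold fall (limma adjusted p = 0.0279). The lines changed by -1.415, -0.053, -3.15 and -0.61, all below 0, with a standard deviation of 1.35 between them. In these bulk RNA samples fewer cells that express a gene and less RNA per cell cannot be told apart.

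Later ATO times kept a lower mean that did not pass the test. MYC read 88.3, 12777, 4179.9 and 12965 at 24 h (-0.78 ± 0.36, limma adjusted p = 0.241) and 119.6, 9236, 3475 and 13498 at 48 h (-0.87 ± 0.36, limma adjusted p = 0.127), with the lines in the same order. U266, KMS11 and 8226/S were below their controls at every ATO time, while MM.1s lay below at 6 and 48 h and above at 24 h. The U266 values at 24 and 48 h again lay below the medians of their arrays, 110.9 and 127.5. The fall of MYC at 6 h missed the threshold without U266, without KMS11 or without 8226/S, and its adjusted p over the 15 alternative settings ran from 0.00472 to 1.

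After DAR the lines moved in different directions. MYC read 302, 20811, 13016 and 22854 on the control 1 arrays of U266, MM.1s, KMS11 and 8226/S, and 679, 14799.7, 4221 and 23409.5 after 6 h of DAR. It was thus higher in U266, lower in MM.1s and KMS11 and close to control in 8226/S, for a mean of -0.24 ± 0.36 (limma adjusted p = 0.736). At 24 h of DAR the values were 299, 25015, 11052 and 19472, and the mean was -0.053 ± 0.36 (limma adjusted p = 0.966). Without KMS11 the 6 h mean turned to 0.21.

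**Figure D1:**
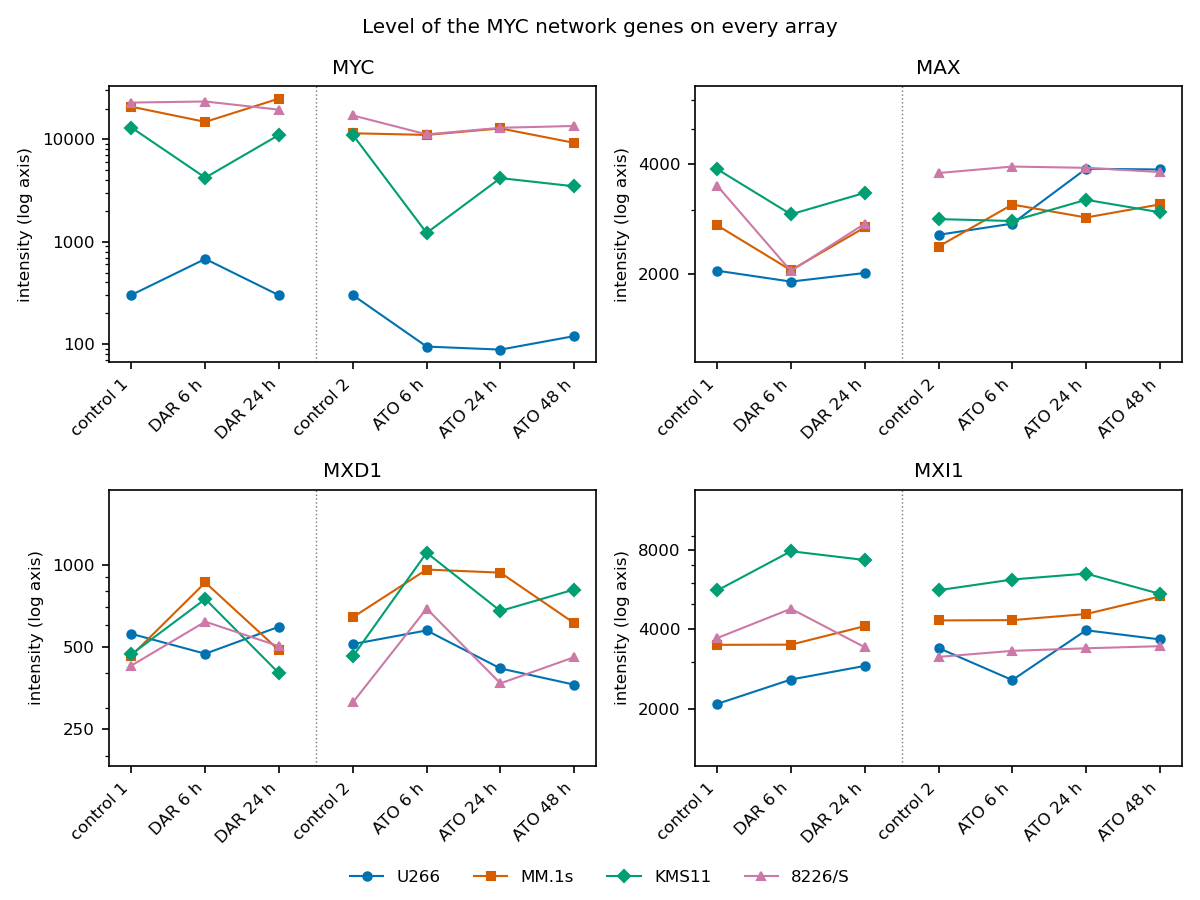
Intensity (log axis) of MYC, MAX, MXD1 and MXI1 on each of the 28 arrays, with 1 line and marker per cell line and a dotted rule between the array sets of DAR (left) and ATO (right). MYC in U266 lies below 1000 on every array, and in KMS11 it drops from 11060.2 to 1218 after 6 h of ATO.

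MXD1, a repressor that replaces MYC on MAX in differentiating cells, rose after 6 h of ATO. On the control 2 arrays it read 512 in U266, 642 in MM.1s, 462 in KMS11 and 313 in 8226/S, and after 6 h of ATO 574, 959, 1105 and 690.3. All 4 lines were above their controls, least in U266, and the mean change was 0.75 ± 0.20 (limma adjusted p = 0.0256). It read 417, 935, 677 and 368 at 24 h and 364, 611, 811 and 458 at 48 h, with mean changes of 0.25 ± 0.20 and 0.19 ± 0.20 that did not pass the test (limma adjusted p = 0.601 and 0.639).

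In the DAR set MXD1 read 558, 465, 470.1 and 427 on the control 1 arrays, 472, 860.3, 749 and 618 at 6 h and 593, 486, 400.1 and 503 at 24 h. The 6 h arrays of MM.1s, KMS11 and 8226/S were above their controls and that of U266 was below, and the mean of 0.44 ± 0.20 did not pass the test (limma adjusted p = 0.164). Its second tested probe set did pass at 6 h of DAR, with a change of 1.11 ± 0.27 (limma adjusted p = 0.00618 over all probe sets), and at 6 h of ATO, with 1.16 ± 0.27 (limma adjusted p = 0.0110).

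MAX fell after 6 h of DAR and passed no test after ATO. On the control 1 arrays it read 2048 in U266, 2724 in MM.1s, 3876 in KMS11 and 3492 in 8226/S, then 1912, 2054, 2918 and 2044 at 6 h of DAR and 2018, 2687, 3339 and 2751 at 24 h. Every line was lower at 6 h than in its control, by -0.42 ± 0.11 on average (limma adjusted p = 0.0155). None of its other tested probe sets passed at that time, with changes from -0.56 to -0.097. On the control 2 arrays MAX read 2566, 2383, 2832 and 3782, and after 6, 24 and 48 h of ATO it read 2752, 3103, 2798 and 3939, then 3885, 2860.1, 3197 and 3908, then 3867, 3106, 2956 and 3806. The mean changes of 0.13, 0.27 and 0.26 did not pass the test (limma adjusted p = 0.628, 0.197 and 0.156), and U266 had the largest at 24 and 48 h.

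MXI1, the other repressor of the family, passed no test between treatments. It read 2092 in U266, 3496 in MM.1s, 5605 in KMS11 and 3707 in 8226/S on the control 1 arrays, 2586, 3501, 7883 and 4781 after 6 h of DAR and 2911, 4112, 7304 and 3424 after 24 h. In the ATO set it read 3400.1, 4322, 5618 and 3148 on the control 2 arrays, 2574, 4333, 6166 and 3318 at 6 h, 3967, 4569, 6491 and 3392 at 24 h, and 3665, 5321, 5442 and 3455 at 48 h. KMS11 held the highest level on every array set and time. The changes ran from -0.046 at 6 h of ATO to 0.29 at 6 h of DAR (limma adjusted p = 0.912 and 0.116).

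Most of the 35 genes fell after 6 h of DAR in the mean over the 4 lines, although the median change in U266 was -0.047. By the test 22 of 35 fell, 13 were not called and 0 rose, where 6.37% of all genes tested fell and 6.86% rose, and 32 of 35 lay below 0 on average. The median change was -0.77, against 0.020 for all genes tested. By role, 7 of 8 small subunit assembly factors fell, 6 of 8 large subunit factors, 5 of 8 nucleolar chaperones and scaffolds, 1 of 3 snoRNP core proteins, the RNA polymerase I subunit POLR1B, 1 of 3 nucleotide and polyamine enzymes, and MAX. The ACTB 3′/5′ ratio was lower at 6 h of DAR (1.28 to 1.52) than in control 1 (1.37 to 1.90), and its part in the result was not tested.

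NOLC1, a nucleolar phosphoprotein that chaperones snoRNPs, had the smallest p. It read 9418 in U266, 11417 in MM.1s, 13488 in KMS11 and 10462 in 8226/S on the control 1 arrays and 5523, 3646, 5547 and 3794 after 6 h of DAR. Every 6 h array was below every control 1 array, and the change was -1.28 ± 0.16 (limma adjusted p = 1.5e-05). The untreated control 2 arrays read 4913, 4739, 7856 and 5410 and so overlapped the 6 h arrays. Control 2 differed from control 1 by -0.98 for NOLC1. NOLC1 kept its call under 15 of 15 alternative settings, and both of its other tested probe sets fell too, by 0.83 and 0.70 on the log2 scale.

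Among the other nucleolar proteins, LYAR, a nucleolar regulator of cell growth, read 2375, 3145, 4411 and 3781 on the control 1 arrays and 1705, 1079, 1411 and 2175 at 6 h of DAR. These 2 groups did not overlap either, and the change was -1.10 ± 0.22 (limma adjusted p = 0.00142). The untreated control 2 arrays of LYAR read 1018, 1028, 1902 and 1688, within or below the range of the 6 h arrays. Control 2 differed from control 1 by -1.28 for LYAR, and the 6 h call was lost with pooled controls and with no replicate block. NCL, the abundant rRNA-binding protein nucleolin, read 15333, 12861, 18814 and 18226 in control 1 and 13666, 5384, 12859 and 11873 at 6 h, with MM.1s the lowest by far and a change of -0.65 ± 0.13 (limma adjusted p = 0.00163). The helicase DDX21 fell by 0.69 and MYBBP1A by 0.77 on the log2 scale. NPM1 (nucleophosmin) was read by probe sets that may share sequence with its pseudogenes and changed by 0.053 ± 0.095 (limma adjusted p = 0.787), and NPM3 and PA2G4 changed by -0.47 ± 0.22 and -0.43 ± 0.19 without passing the test (limma adjusted p = 0.180 and 0.147). The other tested probe set of PA2G4 did pass, at -1.07 ± 0.19 (limma adjusted p = 3.3e-04 over all probe sets), so the probe sets of this gene disagree.

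The small subunit factors act in the processome that folds and cuts the pre-18S rRNA and in later pre-40S particles. NOP14, a processome component, read 1029, 1359.6, 1895 and 1266 on the control 1 arrays of U266, MM.1s, KMS11 and 8226/S and 619, 702, 711 and 600.2 at 6 h of DAR. NOP14 was, with NOLC1 and LYAR, 1 of the 3 genes of the 35 whose 6 h and control 1 arrays did not overlap. The same held, in the same direction, for 1.42% of all genes tested. The change of NOP14 was -1.01 ± 0.19 (limma adjusted p = 8.02e-04), and its control 2 differed from control 1 by -0.58. BYSL, a pre-40S factor, read 702, 1724, 1848 and 2012 in control 1 and 555, 694, 619 and 1068 at 6 h, a change of -1.01 ± 0.19 (limma adjusted p = 8.64e-04) with U266 the least moved. RRP9, which marks the U3 snoRNP, fell by 1.22 on the log2 scale, UTP20 by 0.95, TSR1 by 0.93, PNO1 by 0.85 and WDR43 by 0.83. RRP12 was higher in U266, lower in the other lines, and did not pass the test (-0.53 ± 0.26, limma adjusted p = 0.208).

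Among the large subunit factors, PES1 and WDR12 are partners in the PeBoW complex, which processes the pre-28S rRNA. PES1 read 1338, 1709, 3019 and 3375 on the control 1 arrays and 1023, 605, 1273 and 1489 at 6 h of DAR, a change of -1.06 ± 0.18 (limma adjusted p = 3.92e-04). WDR12 fell by 0.89 on the log2 scale and was higher than control in U266. NOP2, an rRNA methyltransferase, read 1309, 3079, 2514 and 3627 in control 1 and 1044, 795, 1004 and 1757 at 6 h, a change of -1.14 ± 0.21 (limma adjusted p = 8.65e-04). RRP1B read 3939.9, 6758, 9251 and 7677 in control 1 and 3181, 3394, 3739 and 4615 at 6 h, a change of -0.83 ± 0.16 (limma adjusted p = 0.00125). In PES1, NOP2 and RRP1B alike, U266 was the line closest to its control. RRS1 fell by 0.98 and NOP16 by 0.93, while NIP7 and NOC2L changed by -0.47 and -0.18 without passing the test (limma adjusted p = 0.0876 and 0.578).

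Of the remaining roles, GAR1, a core protein of the snoRNPs that guide pseudouridylation, fell by 0.56 on the log2 scale, and the C/D snoRNP proteins NOP58 and FBL changed by -0.23 and -0.20 without passing the test (limma adjusted p = 0.341 and 0.237). POLR1B fell by 0.78, a call lost under 7 of 15 alternative settings, among them quantile normalization, no variance trend and the array sets fitted apart. Of its other tested probe sets, 2 fell, by 1.45 and 1.14, and 1 changed by 0.0064 (limma adjusted p = 0.986 over all probe sets). CAD, which starts pyrimidine synthesis, fell by 0.83, and the polyamine enzymes ODC1 and SRM changed by -0.37 and -0.44 without passing the test (limma adjusted p = 0.105 and 0.216). Over the 19 genes with more than 1 tested probe set, 29 of the 34 other probe sets were lower at 6 h of DAR, 14 of them called. In the fit with 1 probe set a gene, 6.37% of all genes tested fell. The 5 that were higher belong to MXD1, called, and to NOP16, PES1, POLR1B and RRP12, not called.

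**Figure D2:**
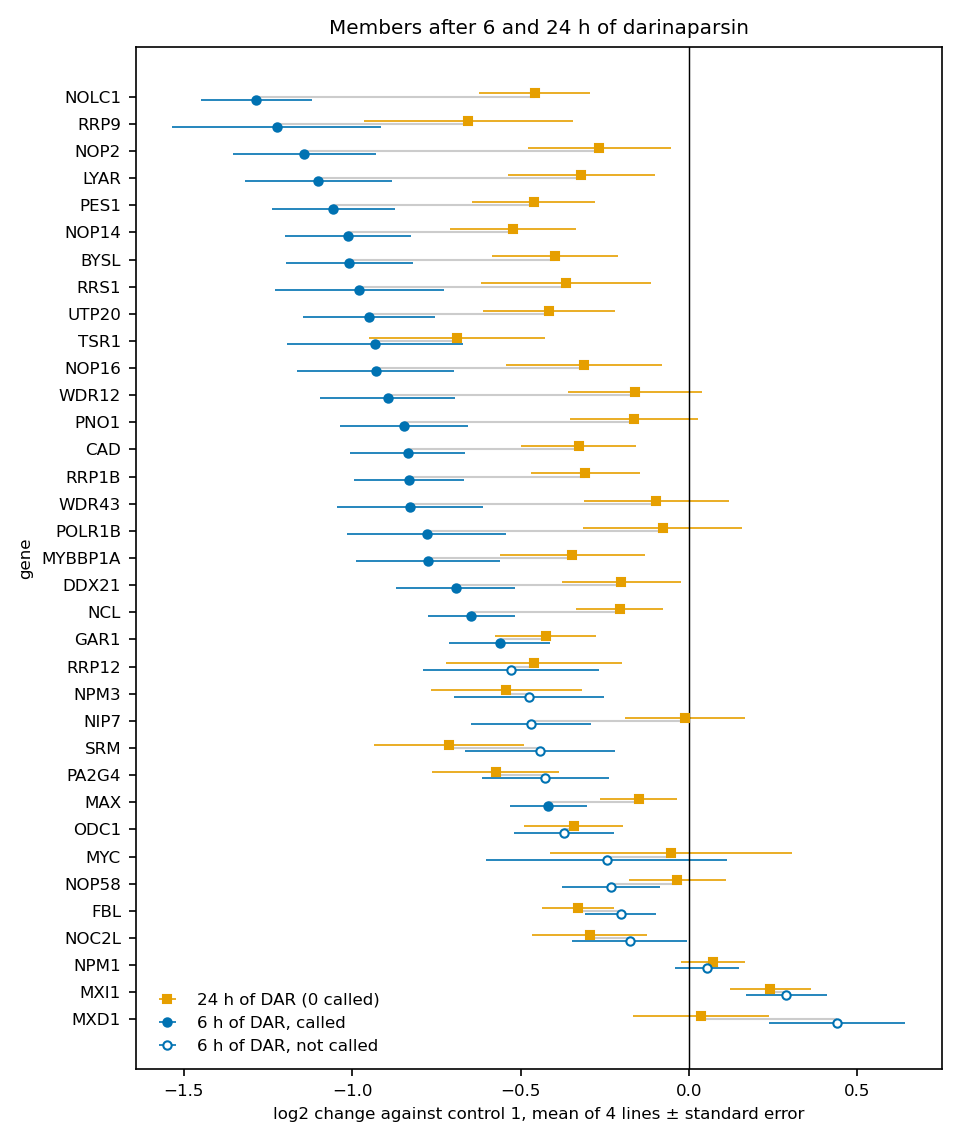
Mean log2 change against control 1 over 4 lines, with the fit's standard error, for the 35 genes at 6 h of DAR (circles, filled where called) and 24 h of DAR (squares). The 22 called genes lie between -1.28 and -0.42 at 6 h, and none of the 35 was called at 24 h.

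The promoters of the genes were searched for the E-box letters CACGTG, a site that MYC and MAX dimers bind. The letters read the same on both strands and are 1 form of the wider pattern CANNTG. The RefSeq windows of GRCh38.p14, from 250 bases before to 50 after the start of a gene, covered 33 of the 40 genes, and 16 of the 33 (48.5%) held CACGTG, against 8.77% of 27305 genes. The genes were chosen by name and many are textbook MYC targets, so the choice itself favours a high share. The wider pattern was about as common in the set as elsewhere, in 72.7% and 73.1% of genes. The windows were not matched for base composition. Of the 19 genes with a window that fell at 6 h of DAR, 12 (63.2%) held CACGTG, and so did 3 of the 10 that were tested and did not fall (30%), namely FBL, ODC1 and SRM. A match describes letters in a window and does not show binding.

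In the 12 genes that fell and hold the letters, the match lay 4 to 64 bases from the start, and 44.2% of the 2821 matches in all windows lay within that distance. The part before the start is shown for 3 of these genes, 5′ to 3′ on the strand of the gene, with the E-box in capitals. The start sites follow each block at its 3′ end. LYAR lies at chr4:4290022-4290271 (minus strand), UTP20 at chr12:101279855-101280104 (plus strand) and DDX21 at chr10:68956397-68956646 (plus strand).
LYAR: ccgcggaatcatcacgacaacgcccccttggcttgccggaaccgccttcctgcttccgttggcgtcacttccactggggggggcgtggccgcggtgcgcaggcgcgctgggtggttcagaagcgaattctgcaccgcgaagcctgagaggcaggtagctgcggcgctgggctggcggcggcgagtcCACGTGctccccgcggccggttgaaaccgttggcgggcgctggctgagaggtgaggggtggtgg
UTP20: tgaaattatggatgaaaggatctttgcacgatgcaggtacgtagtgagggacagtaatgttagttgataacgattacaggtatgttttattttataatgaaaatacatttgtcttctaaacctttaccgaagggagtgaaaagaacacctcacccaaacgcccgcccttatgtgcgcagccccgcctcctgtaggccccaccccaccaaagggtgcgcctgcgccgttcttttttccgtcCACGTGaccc
DDX21: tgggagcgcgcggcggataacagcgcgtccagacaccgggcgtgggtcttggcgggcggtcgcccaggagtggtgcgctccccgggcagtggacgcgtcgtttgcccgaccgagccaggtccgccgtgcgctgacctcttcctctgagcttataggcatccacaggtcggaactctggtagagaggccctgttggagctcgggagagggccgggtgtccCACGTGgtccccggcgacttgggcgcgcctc

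For the other 9 genes the site alone is shown, to let the bases beside the E-box be compared. RRP9 is at chr3:51941892-51941921 (minus strand), PES1 at chr22:30591880-30591909 (minus), NOP14 at chr4:2963374-2963403 (minus), NOP2 at chr12:6568242-6568268 (minus), MYBBP1A at chr17:4555340-4555369 (minus), BYSL at chr6:41921515-41921544 (plus), PNO1 at chr2:68157885-68157914 (plus), WDR43 at chr2:28894658-28894687 (plus) and GAR1 at chr4:109815781-109815810 (plus).
RRP9: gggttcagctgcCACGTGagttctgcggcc
PES1: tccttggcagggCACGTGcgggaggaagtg
NOP14: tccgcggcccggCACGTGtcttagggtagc
NOP2: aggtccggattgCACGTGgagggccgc
MYBBP1A: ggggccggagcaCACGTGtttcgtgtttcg
BYSL: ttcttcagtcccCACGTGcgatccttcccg
PNO1: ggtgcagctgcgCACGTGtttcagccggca
WDR43: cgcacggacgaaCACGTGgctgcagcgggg
GAR1: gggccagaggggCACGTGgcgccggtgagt

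The change at 6 h of DAR was unequal between lines. The median over the 35 genes was -1.02 in MM.1s, -1.13 in KMS11 and -0.70 in 8226/S, but -0.047 in U266, whose dose was the highest. Only MM.1s and KMS11 had the same DAR dose, so line and dose cannot otherwise be told apart. A log2 change below -0.5 was reached by 30 genes in MM.1s, 24 in KMS11, 23 in 8226/S and 4 in U266, and by 20%, 14.9%, 16.6% and 17.8% of all genes tested in these lines. Of the 22 genes that fell, 14 were lower in every line, and in the other 8 the exception was U266. One array a line and time gives no test of this difference at 6 h. A test over both times takes the times of a line as its repeats, and they share 1 control array. It compares the mean change over both times, so it cannot decide on a line difference present at 6 h alone. Over both DAR times together, the line differences passed for 0 of 35 genes in limma's F test, with 0 at an unadjusted p under 0.05, where 0.0324% of all genes tested passed and 7.04% had an unadjusted p under 0.05. The count of genes that fell was 25 without U266, 11 without MM.1s, 12 without KMS11 and 14 without 8226/S.

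**Figure D3:**
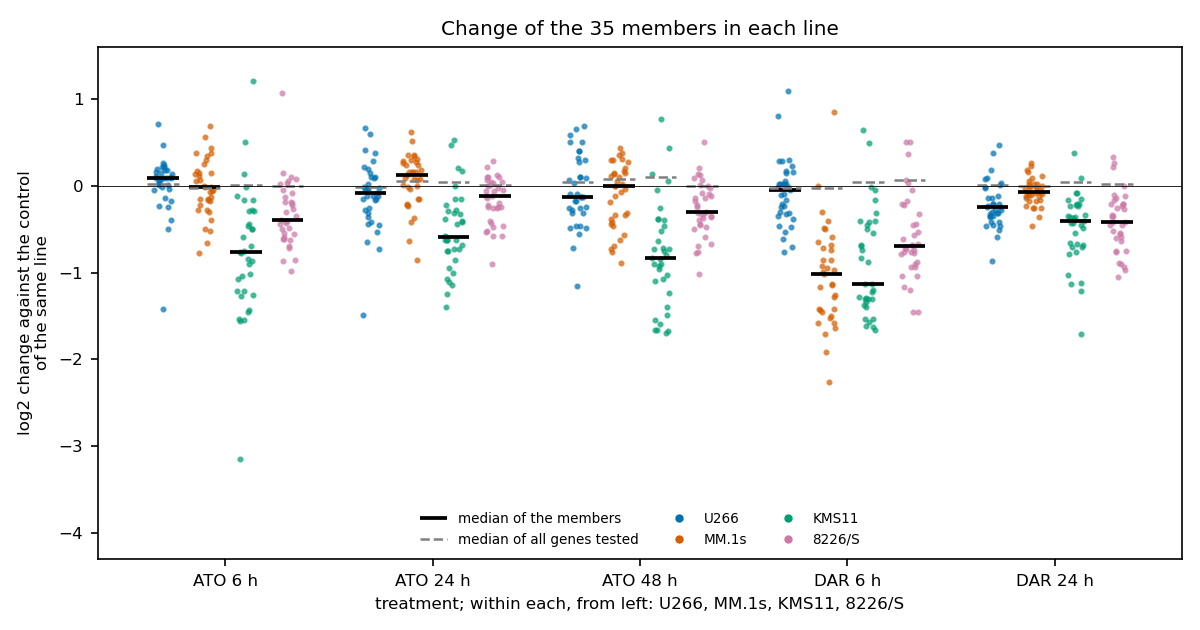
Log2 change against the control of the same line for each of the 35 genes (points), by treatment and, within each, by line from left to right U266, MM.1s, KMS11 and 8226/S, with the median of the 35 genes (black) and of all genes tested (dashed). At 6 h of DAR the median lies near -1 in MM.1s and KMS11 and at -0.047 in U266.

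At 24 h of DAR fewer genes stood apart from control than at 6 h, and the direct test between the times passed for 10 of 35. None of the 35 genes passed the test against control 1, where 0.129% of all genes tested were lower, and 13 (37.1%) had an unadjusted p under 0.05, all of them lower, where 6.39% of all genes tested were lower at that threshold. The median change was -0.32, with line medians of -0.25 in U266, -0.076 in MM.1s, -0.41 in KMS11 and -0.41 in 8226/S. Set against 6 h directly, 10 of the 35 genes were higher at 24 h and 0 lower by the test, where 4.08% of all genes tested were higher, and the median change was 0.46. In U266 the genes lay further below control at 24 h, with 28 of 35 lower against 20 at 6 h. The mean was lower at 24 h than at 6 h in 7 of the 35, among them SRM, at -0.44 against control at 6 h and -0.71 at 24 h. The 10 genes were 4 large subunit factors (NOP2, PES1, WDR12, RRP1B), 3 small subunit factors (WDR43, BYSL, PNO1) and 3 nucleolar proteins (NCL, NOLC1, LYAR).

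The smallest p from 6 to 24 h was again that of NOLC1, which read 6633, 10622, 10672 and 5654 at 24 h in U266, MM.1s, KMS11 and 8226/S. Against control 1 these lines stood at -0.50, -0.10, -0.34 and -0.88, with MM.1s nearest its control and 8226/S furthest below. The change from 6 h was 0.83 ± 0.16 (limma adjusted p = 0.00259). NOP2 read 1075, 3122, 1911 and 2713 at 24 h, a change of 0.88 ± 0.21 (limma adjusted p = 0.0116). WDR12 read 3553, 4503, 5222 and 7176 in control 1, 4177, 1487, 2116 and 3728 at 6 h and 3576, 3989, 4514 and 5963 at 24 h, so 3 lines came back up, U266 did not, and the change from 6 h was 0.73 ± 0.20 (limma adjusted p = 0.0237). LYAR read 1727, 3183, 2697 and 3436 at 24 h, a change of 0.78 ± 0.22 (limma adjusted p = 0.0272). The ACTB 3′/5′ ratio was higher at 24 h (1.69 to 2.19) than at 6 h, and its part in the result was not tested. The line medians of this change were 1.03 in MM.1s, 0.39 in KMS11, 0.27 in 8226/S and -0.10 in U266. These calls were lost under 3 (NOP2) to 11 of 15 alternative settings. The count of 10 rests on few lines, being 0 without MM.1s, 1 without KMS11, 2 without 8226/S and 16 without U266.

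ATO moved fewer of these genes past the test. At 6 h, 2 of 35 fell (MYC and CAD) and 1 rose (MXD1), where 2.67% of all genes tested fell and 3.75% rose, so the shares called are near the background. At limma's unadjusted p under 0.05, 9 of the 35 were lower, where 8.88% of all genes tested were. The median change was -0.21, against a median near 0 for all genes. Below 0 were 30 of 35 genes, and 7731 of all 15448 genes tested. CAD read 2174 in U266, 1012 in MM.1s, 1358 in KMS11 and 2507 in 8226/S on the control 2 arrays and 1971, 629, 553 and 1370.1 at 6 h, lower in every line and by -0.73 ± 0.17 (limma adjusted p = 0.0109). It was thus called lower at 6 h of both agents. The count of genes called at 6 h of ATO was 0 without KMS11, 0 without 8226/S and 5 without U266. RRP9 had the largest mean among the genes that did not pass, at -0.81 (limma adjusted p = 0.135).

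At 24 h of ATO, ODC1, the first enzyme of polyamine synthesis, was the only one of the 35 genes called, where 2.29% of all genes tested fell. It read 10161, 22749, 16067 and 21581 in control 2 and 8144, 12594, 8909 and 21623 at 24 h, so 8226/S stood at its control while the other lines were lower. The change was -0.50 ± 0.15 (limma adjusted p = 0.0494), and it missed the threshold under 11 of 15 alternative settings. At limma's unadjusted p under 0.05, 7 of the 35 genes were lower, where 7.7% of all genes tested were.

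At 48 h of ATO 6 of 35 genes fell, where 5.49% of all genes tested fell, and the median was -0.27 against 0.056 for all genes. At limma's unadjusted p under 0.05, 11 of the 35 were lower, where 10.8% of all genes tested were. ODC1 read 6187, 14028, 6807 and 20234 at 48 h in U266, MM.1s, KMS11 and 8226/S, a change of -0.68 ± 0.15 (limma adjusted p = 0.00366). SRM, spermidine synthase, read 3910.3, 4434, 12751 and 11828 in control 2 and 2826, 2986, 4346 and 8403 at 48 h, a change of -0.77 ± 0.22 (limma adjusted p = 0.0262). Both polyamine enzymes were lower in 4 of 4 lines, and KMS11 had the lowest change of each.

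The other genes called at 48 h of ATO were nucleolar. LYAR read 1018, 1028, 1902 and 1688 in control 2 and 722, 608, 567 and 1356 at 48 h, a change of -0.80 ± 0.22 (limma adjusted p = 0.0175). NPM3, a histone chaperone related to nucleophosmin, read 853, 976, 1332 and 2993 in control 2 and 699.5, 710.4, 458 and 1466 at 48 h, a change of -0.80 ± 0.22 (limma adjusted p = 0.0204). PA2G4, a nucleolar growth regulator, read 2215, 3856, 6854 and 6501 in control 2 and 2374, 2265, 2135 and 3999 at 48 h, lower in all lines but U266 and by -0.76 ± 0.19 (limma adjusted p = 0.0102). FBL, the methyltransferase of the C/D snoRNPs, read 5890.1, 12370.1, 15386 and 11562 in control 2 and 4748, 8941, 11808 and 10461 at 48 h, a change of -0.33 ± 0.11 (limma adjusted p = 0.0476). The FBL call was lost under 9 of 15 alternative settings, among them an offset of 5, no filter and no variance trend, and the other 5 calls were lost under 2 to 4. None of these 6 genes was called without KMS11.

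The plasma cell markers moved in the same arrays. At 6, 24 and 48 h of ATO 4, 6 and 7 of the 11 fell and 0 rose, where 2.67%, 2.29% and 5.49% of all genes tested fell. The medians of the 11 markers were -0.54, -0.86 and -0.79 against -0.21, -0.17 and -0.27 for the 35 genes. IRF4, the transcription factor on which myeloma cells depend, fell by 1.08, 1.09 and 0.89 on the log2 scale, and TNFRSF17, the receptor BCMA, by 0.69, 1.64 and 1.70. The summed intensity of the 11 markers was 65200 to 130700 on the control 2 arrays and 55230 to 96660, 49260 to 75370 and 35390 to 80120 at 6, 24 and 48 h. Their part in the changes of MYC, the polyamine enzymes and the nucleolar genes after ATO was not tested.

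Over time in ATO none of the 35 genes passed a direct test. Between 6 and 24 h, 24 and 48 h, and 6 and 48 h, the test passed for 0.453%, 0% and 3.81% of all genes tested, and 3, 1 and 4 of the 35 (8.57%, 2.86% and 11.4%) had an unadjusted p under 0.05. These shares lie below the 10.8%, 6.41% and 17% of all genes tested. Values at 24 and 48 h thus stand beside those at 6 h without a called difference between times.

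After ATO the lowest line medians were those of KMS11. Its median over the 35 genes was -0.77 at 6 h, -0.59 at 24 h and -0.83 at 48 h, against -0.40, -0.11 and -0.30 in 8226/S, -0.014, 0.12 and -0.0027 in MM.1s and 0.092, -0.080 and -0.13 in U266. In KMS11, 22, 19 and 25 of the 35 genes lay below -0.5 at 6, 24 and 48 h, and 14.6%, 14.0% and 16.3% of all genes tested did so. Limma's F test for a difference between lines over the 3 times passed for 0 of 35 genes (lowest adjusted p = 0.428, for RRP1B), where 0.142% of all genes tested passed, and 3 genes had an unadjusted p under 0.05 (8.57%, against 6.79% of all genes tested). Here too the times of a line served as its repeats and share 1 control array.

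**Figure D4:**
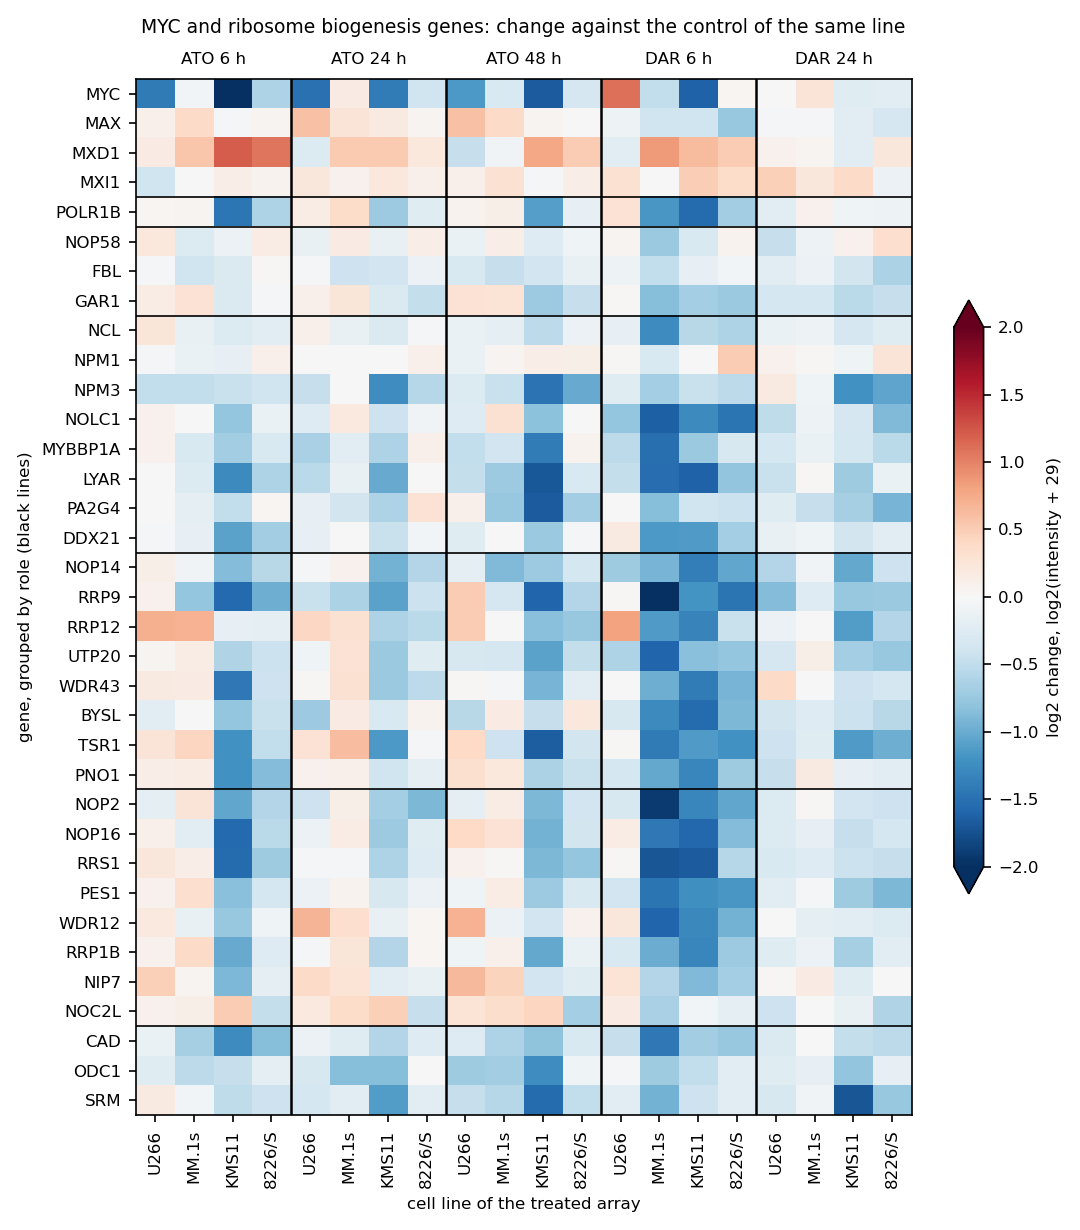
Log2 change against the control of the same line for the 35 genes (rows, grouped by role) in each line at each treatment (columns), blue for lower and red for higher, with colours capped at 2 in either direction. The blue blocks are those of MM.1s, KMS11 and 8226/S at 6 h of DAR and of KMS11 at all ATO times.

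Only 8226/S received both agents at the same dose, 2 µM, with 1 array each and thus no test. At 6 h the median change of the 35 genes in this line was -0.40 after ATO and -0.70 after DAR, and at 24 h it was -0.11 and -0.41. MYC changed by -0.61 after ATO and 0.035 after DAR at 6 h. NOLC1 changed by -0.13 and -1.46, and CAD by -0.86 and -0.76. ATO was read against control 2 and DAR against control 1, and array set and agent cannot be told apart here.

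Other genes of the same pathways were taken from lists that do not overlap the set. Their counts stand beside the 6.37% of all genes tested that fell and the 6.86% that rose at 6 h of DAR. At 6 h of DAR, 22 of 32 further small subunit processome genes fell and 0 rose (median -0.59), led by WDR36 (-1.51), NOL11 (-0.97) and UTP3 (-1.01). Of 32 further large subunit genes 19 fell and 0 rose (median -0.60), led by DDX10 (-1.40), RRP15 (-0.91) and RSL1D1 (-0.77). Of 14 further snoRNP and rRNA modification genes 6 fell and 1 rose, with DIMT1 (-1.03), NAT10 (-0.96) and RUVBL1 (-0.67) first, and of 14 RNA polymerase I genes 4 fell, with POLR1F (-0.97), POLR1G (-0.98) and POLR1C (-0.92) first. Against these, 0 of 21 cytosolic ribosomal protein genes passed in either direction, with 0 at an unadjusted p under 0.05 and a median of 0.091. Their probe sets may share sequence with pseudogenes.

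Lists nearer to MYC were mixed. Of all genes tested 6.37% fell and 6.86% rose at 6 h of DAR, and 5.49% fell at 48 h of ATO. Of 15 partners of the MYC network 4 fell at 6 h of DAR and 3 at 48 h of ATO, among them SKP2, a ubiquitin ligase for MYC (-0.84 at 6 h of DAR), and the kinase PIM1 (-0.45 at 6 h of DAR and -0.79 at 48 h of ATO). The ubiquitin ligase MYCBP2 fell by 0.68 on the log2 scale at 6 h of DAR. Of 26 further MYC-driven metabolism and translation genes 8 fell and 3 rose at 6 h of DAR. The hexokinase HK2 fell at 6 h of ATO (-2.09) and at 6 h of DAR (-1.17), the purine enzyme PPAT fell at 6 h of DAR (-0.98), and the chaperonin HSPE1 rose at 6 h of ATO (0.75) and of DAR (0.66). Of the 11 plasma cell markers 2 fell at 6 h of DAR, IRF4 (-1.08) and PRDM1 (-0.63), and 1 rose. The changes of the 11 ran from -1.08 to 1.73, with a median of -0.14. The part of these markers in the changes of the ribosome genes was not tested.

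Without treatment, U266 stood apart from the other lines. MYC averaged 301.2 in U266, 12000 in KMS11, 15440 in MM.1s and 19770 in 8226/S (limma F test, adjusted p = 5.65e-08). The control arrays of neighbours in this order overlapped among the upper 3 lines, at 11060.2 and 13016 in KMS11, 11459 and 20811 in MM.1s, and 17107 and 22854 in 8226/S. The related gene MYCL ran the other way, at 6147 and 8159 on the U266 controls and from 63.4 to 505 on those of the other lines. MYCL in U266 read 3906 and 4258 at 6 and 24 h of DAR, and 5268, 2611 and 2699 at 6, 24 and 48 h of ATO.

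Across the set, 28 of 35 genes differed between untreated lines, where 52% of all genes tested did. U266 had the lowest level in 23 of the 28 and the highest in 0, whereas it was lowest in 30.3% and highest in 30.2% of all genes that differed. The highest level was that of 8226/S in 17, KMS11 in 10 and MM.1s in 1. The clearest after MYC were SRM (3490 in U266, 4551 in MM.1s, 11950 in KMS11 and 11200 in 8226/S, adjusted p = 7.02e-06 in limma's F test), PA2G4 (2544, 4872, 7631 and 7381) and FBL (6931, 15170, 17840 and 13400). NPM1, DDX21 and GAR1 were among the 7 that did not pass.

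**Figure D5:**
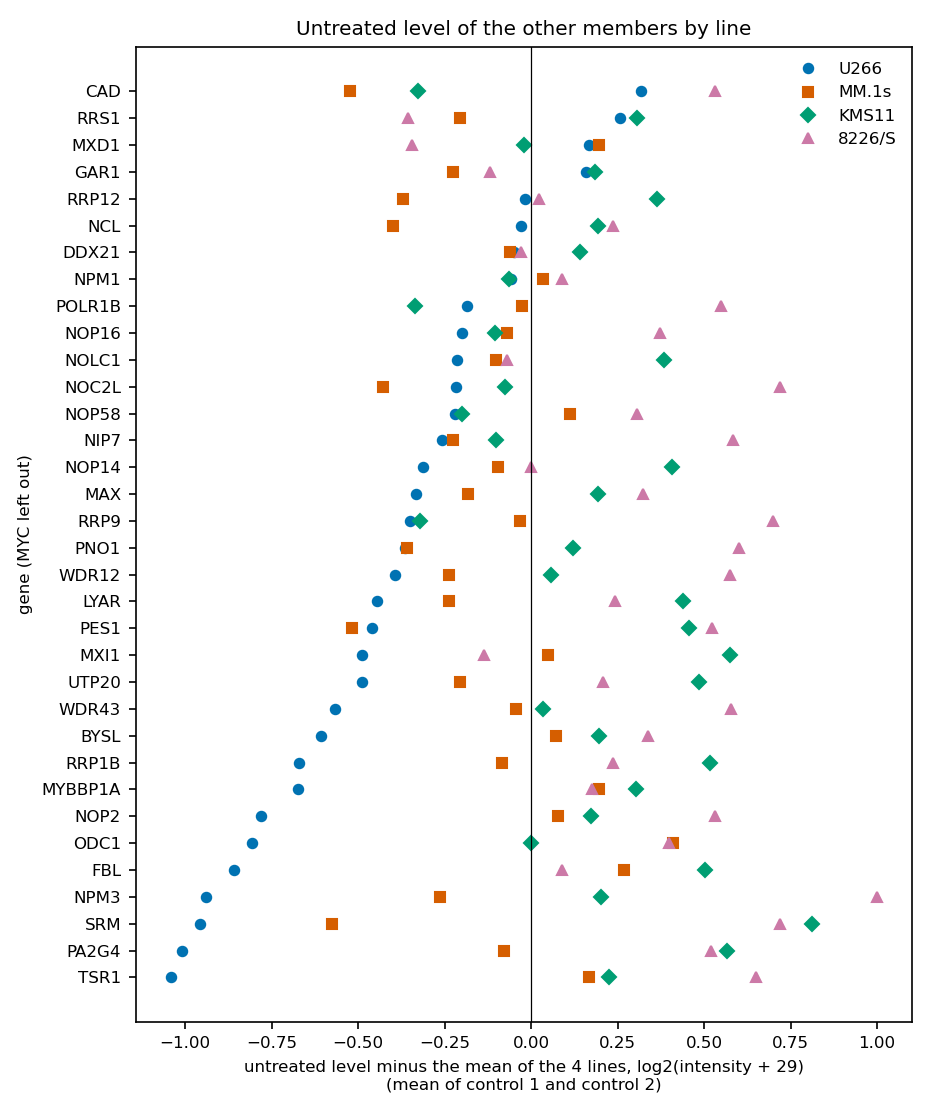
Untreated level of the 34 genes other than MYC in each line, as the difference from the mean of the 4 lines on the log2(intensity + 29) scale, averaged over control 1 and control 2. Genes are ordered by U266, which is lowest in 23 of the 28 genes called different between lines, MYC included.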

How the data were processed

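Total RNA of the 4 lines was hybridised to arrays of 54675 probe sets. The authors deposited intensity values from the GCOS software, per the submitters' processing notes; the version was not given in the sources used here. Each array had a mean of 500.052 to 500.076 after trimming 2% at each end, so values are relative to the array. Gene symbols came from the platform annotation, and probe sets with several symbols were not used. The fit used limma 3.58.1 in R 4.3.3 on log2(intensity + 29), for genes that passed the 50th percentile of the array on 4 or more arrays, with a term for each line in each array set, eBayes with a trend and Benjamini-Hochberg adjustment. The cell line pairs the arrays: deviations of arrays of the same line correlated at 0.742 on average, and those of other lines at -0.0530 at most. The deviations were taken from the mean of the 4 lines in each group, which by itself pushes the values between lines below 0. On simulated data, 55.9% to 64.7% of genes changed by 1 on the log2 scale were called, and 9.52% to 20.6% of those changed by 0.5. The simulation changed 200 of 15448 genes, each by the same amount in every line, so these shares need not hold for the real arrays.

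The genes and lists were chosen with earlier results of these data known. Genes named with full values are MYC, MAX, MXD1 and MXI1, up to 8 called genes a treatment by smallest p with the same sign in 4 lines, up to 4 a time or line contrast and up to 3 a companion list; the remaining genes are given by role, and genes named outside this were chosen after their values were seen. Alternatives covered pooled controls, scaling, offset, filter, probe set choice, the variance trend, fitting the sets apart, the line term and each line left out.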

Additional observations from a re-analysis of the deposited data

Results flagged for a closer look

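Among 64 changes examined over the 4 lines, 1 had a line far from the rest, where chance alone gives about 1 in 20. SRM at 48 h of ATO changed by -1.55 in KMS11 and by -0.57 to -0.46 in the other lines. Between 6 and 24 h of DAR, 10 genes differed in their change against control by the direct test: NCL by 0.44, NOLC1 by 0.83, LYAR by 0.78, WDR43 by 0.73, BYSL by 0.61, PNO1 by 0.68, NOP2 by 0.88, PES1 by 0.59, WDR12 by 0.73 and RRP1B by 0.52 on the log2 scale, each higher at 24 h. Without MM.1s none of the 10 passed.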

How the results depend on the processing

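Of the counts of genes called, that of 22 at 6 h of DAR ranged over 11 to 25 with a line left out, and was 15 with pooled controls, 18 with the mean of all probe sets and 1 with no replicate block, which drops the line term that pairs the arrays. That block changed the other counts to 0 at 6, 24 and 48 h of ATO and from 6 to 24 h of DAR. The 3 called at 6 h of ATO became 9 with pooled controls, 1 with the mean of probe sets and 0 to 5 with a line left out. The 1 at 24 h of ATO became 6 with pooled controls, 0 with median centring, an offset of 5, no filter, the mean of probe sets, every probe set fitted, no trend or the sets fitted apart, and 0 to 1 with a line left out. The 6 at 48 h of ATO became 10 with pooled controls and 0 to 6 with a line left out. The 10 from 6 to 24 h of DAR became 1 with pooled controls, 5 with quantile normalization, 3 with median centring, 6 with no filter, the mean of probe sets or the sets fitted apart, 2 without the trend and 0 to 16 with a line left out. The 0 at 24 h of DAR became 1 with pooled controls, and the 0 from 6 to 48 h of ATO became 1 with quantile normalization or the mean of probe sets and 0 to 1 with a line left out. The cause of these moves was not tested. Some uncalled values changed sign: MXI1 at 6 h of ATO was 0.050 and MYC at 24 h of DAR 0.14 with pooled controls, MXD1 at 24 h of DAR was -0.021 with quantile normalization and -0.061 with median centring, and MAX at 48 h of ATO was -0.0247 with the mean of probe sets. With a line left out, MXI1 at 6 h of ATO ranged over -0.106 to 0.0708, MXD1 at 48 h of ATO over -0.00681 to 0.406, MYC at 6 h of DAR over -0.691 to 0.213, MYC at 24 h of DAR over -0.159 to 0.00757 and MXD1 at 24 h of DAR over -0.0248 to 0.121. With n = 4 lines and 1 array each, small changes are not resolved.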
